A study of Morchella sextelata with 15 samples.

Results

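The 143 transcripts described here had raised mean levels in mycelium of the morel Morchella sextelata under trifluralin, pendimethalin and S-metolachlor, and a mean close to that of herbicide-free mycelium under acetochlor. They were selected on measured values. Each group mean of FPKM (fragments per transcript length and library total) had to be at least 5 and at least 2 times the control mean with the first 3 herbicides. The acetochlor mean had to lie within 1.5 times of the control mean in either direction, and the 100 transcripts with the highest control means were left out. The members are 143 of 20602 transcripts, or 0.694%. Because group means against control chose them, their folds and calls against control are given as a description, from which nothing is concluded.

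Morchella sextelata is an ascomycete fungus, a black morel that is cultivated for its fruiting bodies, and the RNA came from its mycelium, labelled wild type. The 5 groups of 3 libraries each were mycelium with trifluralin, with pendimethalin, with S-metolachlor, with acetochlor, and a control with no herbicide. All cultures grew on potato dextrose agar for 5 days at 20 °C, and every herbicide was present at 10 times its own usual application concentration, so the 4 molar doses need not be equal. The labels do not say whether the 3 libraries of a group came from separate cultures, so p-values measure the spread between these libraries, which may be technical. In such bulk samples, more hyphae that express a transcript and more of it per hypha cannot be told apart.

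In plants, the dinitroanilines trifluralin and pendimethalin bind tubulin, so that microtubules fail to form. The chloroacetanilides S-metolachlor and acetochlor stop plant cells from elongating very-long-chain fatty acids, and plants detoxify them with glutathione. Both chloroacetanilides carry a chloroacetyl group on the nitrogen of an alkylated aniline, and their second nitrogen substituent, an alkoxyalkyl group, is not the same. The members are thus transcripts on which 1 chloroacetanilide lay with both dinitroanilines and the other chloroacetanilide with the control. The files do not pair the transcripts, which carry names of a de novo Trinity assembly, with genes, and 0 names could be matched to any of the 13182 genes listed for the reference assembly. No function and no sequence can therefore be given for any member, and the mycelium label was not checked against marker genes.

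Library totals ranged from 22923346 to 24766457 expected counts, and all 143 members passed the filter on low counts. The members' control means had a median of 5.63 FPKM and ranged from 0.316 to 264 FPKM, against a median of 4.02 FPKM over the 17555 transcripts tested. In counts, the members' control means had a median of 250.4 and a lowest value of 2.14 expected counts per library. An expected count under 10 occurred in some library for 17 members. The members came from 142 Trinity genes (names without isoform number and last digit).

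Of all transcripts that met the condition on trifluralin, pendimethalin and S-metolachlor, 573 in number, the acetochlor mean was at least 2 times control in 280. It was between 1.5 and 2 times control in 137, within the limits in the 143 members, and below control by more than 1.5 times in 13. The median acetochlor ratio over these 573 transcripts was 1.98, and its quartiles were 1.45 and 2.77. The limits on acetochlor thus cut a continuous range of levels.

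**Figure D1:**
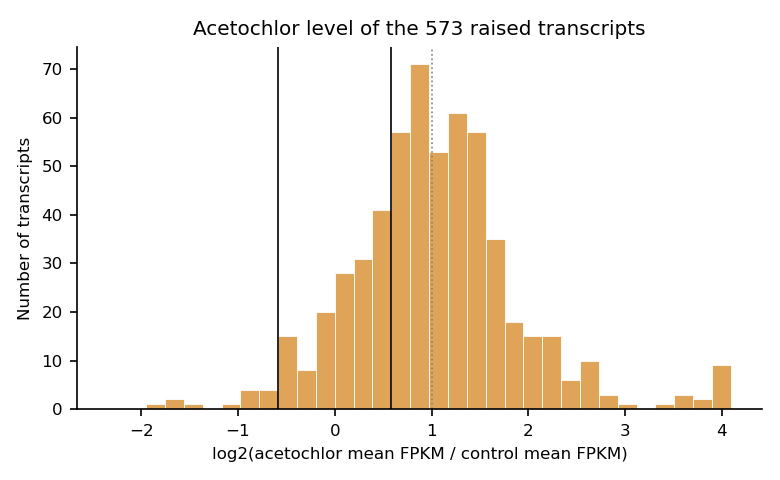
Histogram of the acetochlor mean FPKM over the control mean FPKM (log2, x axis) for the 573 transcripts raised with the other 3 herbicides; solid lines mark ratios of 1/1.5 and 1.5, the dotted line a ratio of 2, and values past either end are drawn in the outermost bars. The counts run through the upper limit without a gap, and the 143 members lie between the solid lines.

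The members nearest to the limits had a trifluralin mean of 2.0022 times control, a pendimethalin mean of 2.003 times and an S-metolachlor mean of 2.01 times, and acetochlor means of 1.49 and 0.671 times. Just outside, the nearest transcripts lay at 1.98 times control with trifluralin, 1.998 times with pendimethalin and 1.97 times with S-metolachlor, and at 1.502 and 0.662 times with acetochlor. The lowest member means were 5.14, 5.09 and 5.23 FPKM with trifluralin, pendimethalin and S-metolachlor, and the nearest transcripts below the limit of 5 FPKM had 4.92, 3.46 and 4.96 FPKM. Values on both sides of each ratio limit were thus nearly equal.

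The median member had a mean of 3.06 times control with trifluralin, 3.03 times with pendimethalin, 3.76 times with S-metolachlor and 1.16 times with acetochlor. Folds of at least 4 were found in 46 members with trifluralin, 50 with pendimethalin and 67 with S-metolachlor. The highest folds were 86.7, 188 and 357. With acetochlor, 100 members had a mean above control and 43 below it, with the highest ratio at 1.49.

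The libraries of a group did not carry the rise evenly. In trifluralin replicates 1, 2 and 3, the median member stood at 2.08, 2.92 and 3.96 times the control mean. In pendimethalin replicates 1, 2 and 3 it stood at 3.72, 3.76 and 1.28 times, and in S-metolachlor replicates 1, 2 and 3 at 3.77, 3.74 and 3.93 times. The S-metolachlor libraries were thus close to each other, whereas pendimethalin replicate 3 lay near control and trifluralin replicate 1 between control and the other trifluralin libraries. Acetochlor replicates 1, 2 and 3 were at 0.913, 1.17 and 1.22 times, and control replicates 1, 2 and 3 at 0.854, 1.52 and 0.558 times the mean of the controls. Control replicate 2 was the highest control for most members, and control replicate 3 the lowest.

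**Figure D2:**
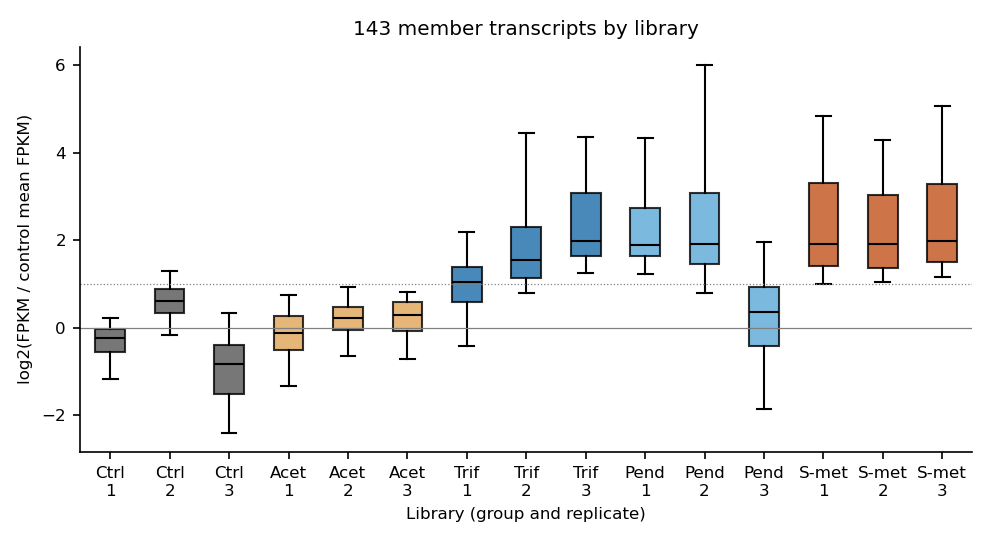
Box plots of log2(FPKM / control mean FPKM) over the 143 members in each of the 15 libraries (boxes: quartiles, line: median, whiskers: 5th to 95th percentile; a value of 0 is left out; dotted line: 2 times control; Ctrl control, Acet acetochlor, Trif trifluralin, Pend pendimethalin, S-met S-metolachlor). The S-metolachlor medians are 3.77, 3.74 and 3.93 times control, whereas pendimethalin replicate 3, at 1.28 times, lies below control replicate 2, at 1.52 times.

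In pendimethalin replicate 3, 50 of the 143 members were below the control mean and 30 were at least 2 times above it, against 140 and 127 at least 2 times above it in replicates 1 and 2. That library held the lowest pendimethalin value in 120 members, or 83.9%, whereas it was lowest for 37.4% of all tested transcripts. It was under 1/2 of the mean of the other pendimethalin libraries in 99 members (69.2%, against 15.3% of tested transcripts). It was under 1/10 of that mean in 31 members (21.7%, against 4.96% of tested transcripts). Trifluralin replicate 1 was the lowest trifluralin library in 107 members, or 74.8%, against 40.0% of tested transcripts. Under 1/2 of the mean of the other trifluralin libraries it was in 59 members (41.3%, against 15.9%). Under 1/10 of that mean it was in 17 members (11.9%, against 5.03%). Among the S-metolachlor libraries 0 members had a value under 1/10 of the mean of the others in any replicate.

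Control replicate 2 was the highest control in 117 members, or 81.8%, against 48.4% of tested transcripts. In 74 members (52.1% of 142 with a value to compare with) it was at least 2 times the mean of control replicates 1 and 3, against 15.3% of tested transcripts. The 280 transcripts raised by all 4 herbicides had a similar share, 48.2%, so a high control replicate 2 was found beside both patterns. Control replicate 3 was the lowest control in 111 members, or 77.6%, against 45.9%. The part of these libraries in the members' pattern was not tested beyond leaving each out. Their values entered the means that chose the members, so nothing is read from the differences to tested transcripts.

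Membership itself moved with the controls. Without control replicate 2 the rule was met by 108 transcripts, of which 54 were among the 143. Without control replicate 3 it was met by 127, of which 74 were among the 143, and without control replicate 1 by 144, of which 107 were. Leaving out any 1 herbicide library kept between 112 and 140 of the members, with 139 of 143 kept without pendimethalin replicate 3. When pendimethalin replicate 3 and control replicate 2 were both left out, a setting chosen after the data were seen, 126 transcripts met the rule and 52 of them were members. With group medians in place of means 146 met it, of which 80 were members.

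**Figure D3:**
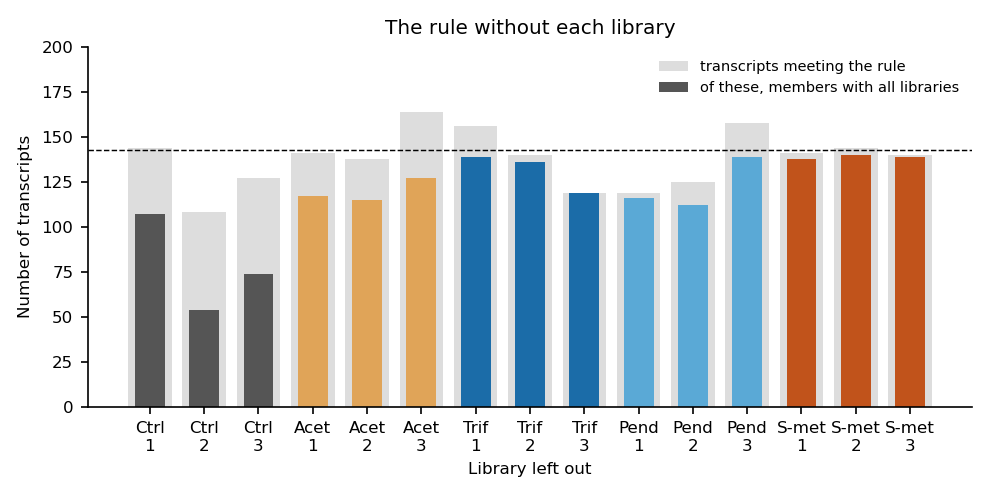
Number of transcripts that met the rule without each of the 15 libraries (grey bars) and how many of these were among the 143 members (coloured bars; dashed line: 143). The lowest coloured bars are those without control replicate 2, at 54, and control replicate 3, at 74, whereas those without an S-metolachlor library stand at 138 to 140.

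Libraries without overlap with control were most frequent for S-metolachlor, among the members and among all tested transcripts. All S-metolachlor libraries lay above all controls in 139 of the 143 members, beside 39.5% of all tested transcripts. All trifluralin libraries did so in 98 members, beside 23.2%, and all pendimethalin libraries in 50 members, beside 18.9%. The 9 libraries of these 3 herbicides all lay above the 3 controls in 48 members, beside 9.84%, and above the 6 control and acetochlor libraries in 36 members, beside 1.44%. Since the rule used these contrasts, nothing is read from the difference to the shares over all transcripts.

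In edgeR's quasi-likelihood fit over all 17555 transcripts, 58 members were called higher than control with trifluralin (adjusted p under 0.05, called higher over all transcripts 7.68%). With pendimethalin 63 members were called (7.35% over all), and with S-metolachlor 109 (24.4%). The rule used each of these contrasts, so nothing is read from the counts or from their distance to the shares over all transcripts. Of the members, 38 were called higher with all 3 herbicides (3.47% over all transcripts), 31 with 2 of them (4.20%), 54 with 1 (20.6%) and 20 with none (71.7%). Without pendimethalin replicate 3 the pendimethalin count was 112, without pendimethalin replicate 1 it was 32, without replicate 2 it was 24, and with only the compared groups in the fit it was 7. Higher calls over all transcripts in these settings were 1644 of 18432, 798 of 18431, 661 of 18458 and 138 of 14791. The main fit had 1290 of 17555. The trifluralin count was 38 without trifluralin replicate 2, 15 without replicate 3 and 31 with only the compared groups in the fit. Over all transcripts these settings gave 912 of 18469, 523 of 18467 and 597 of 14600 higher calls, against 1349 of 17555. Without control replicate 1 the counts were 18, 17 and 72 for trifluralin, pendimethalin and S-metolachlor. Without control replicate 3 they were 18, 18 and 70, whereas without control replicate 2 they rose to 79, 77 and 114.

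The rule also holds the acetochlor mean near control, so few calls in that contrast follow from the choice of members. In edgeR 0 members were called in either direction (9.72% over all transcripts), and 1 had an unadjusted p under 0.05. The counts in DESeq2 and in limma on log2(FPKM + 1) were 0. The 95% interval of the acetochlor difference lay within 2-fold of control in both directions for 29 members, so for the other members a 2-fold difference is not excluded. Without control replicate 2, 2 members were called higher with acetochlor, beside 1048 of 18426 transcripts. Between the chloroacetanilides, 98 members were called lower with acetochlor than with S-metolachlor, beside 19.5% of all transcripts. Without acetochlor replicate 1 the count was 62 members, beside 2554 of 18482 transcripts. The rule fixes this contrast.

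The sizes of the rise under the 3 herbicides were not set against each other by the rule, and these 3 pairs were tested. Its minimum for each herbicide still keeps out transcripts raised by only some of them. S-metolachlor had the highest of the 3 means in 81 members, pendimethalin in 41 and trifluralin in 21. The 3 means lay within 1.5 times of each other in 53 members and within 2 times in 80, and the median ratio of the highest to the lowest was 1.71. The spread among the 3 means thus differed widely between members. The pairs share libraries with each other, and the p-values are adjusted over all transcripts within each pair.

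Between pendimethalin and trifluralin no member passed the threshold in edgeR, with 0 called higher (0.0684% over all transcripts) and 0 called lower (0.342%), and 5 members had an unadjusted p under 0.05. The median log2 difference over the members was 0.05, against 0.04 over all transcripts, and it was -0.06 in limma on log2(FPKM + 1). Leaving out 1 library moved it from -0.30, without pendimethalin replicate 2, to 0.30, without pendimethalin replicate 3. The median 95% interval reached 1.11 on the log2 scale to either side. It lay within 2-fold in both directions for 37 members, and for the other members a 2-fold difference between the dinitroanilines is not excluded. The lowest adjusted p was that of TRINITY_DN5419_c0_g1_i2_4, at 0.144 in edgeR (log2 difference -1.20, SE 0.29), and DESeq2 called this 1 member (adjusted p = 0.00959; 0.0843 to 0.785 over the other alternatives).

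S-metolachlor and trifluralin differed in 26 members, of which 23 were higher with S-metolachlor, or 16.1%, beside 18.2% of all transcripts. The other 3 were lower, or 2.10%, beside 16.9%. The share of members higher with S-metolachlor was thus near that of all transcripts. The rule keeps out transcripts with a low mean under any of the 3 herbicides. Nothing is therefore read from the shares above or below trifluralin, or above or below pendimethalin in the next comparison. The median log2 difference was 0.30 over the members and 0.07 over all transcripts, with 0.14 over the members without trifluralin replicate 1 and 0.53 without trifluralin replicate 3. With only these groups in the fit 43 members were called, 39 of them higher. That fit called 7242 of 15694 transcripts, 3879 of them higher. The main fit called 6153 of 17555, with 3193 higher.

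S-metolachlor and pendimethalin differed in 21 members. With S-metolachlor 19 were higher, or 13.3%, beside 16.3% of all transcripts, and 2 were lower, or 1.40%, beside 16.7%. The median log2 difference was 0.22 over the members, against -0.01 over all transcripts. The median and the number of lower members rest on pendimethalin replicate 3, since without it the median was -0.0018 and 12 members were lower. The number of higher members changed little, to 17. Of all 18432 transcripts tested without that library, 2702 were called higher and 2785 lower. Of the 21 calls, 18 were kept without it.

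Called higher with S-metolachlor than with each dinitroaniline were 17 members, or 11.9%, beside 13.8% of all transcripts. The minimum of 2 times control for both dinitroanilines shapes this share, so nothing is read from it. Called lower than with each was 1 member (13.4% of all transcripts). The 17 had S-metolachlor means of 22.3 to 1773 FPKM, with a median fold over control of 9.68, whereas their median folds with trifluralin and pendimethalin were 2.58 and 2.65. Their acetochlor means lay between 0.762 and 1.49 times control. All 3 S-metolachlor libraries lay above all 6 dinitroaniline libraries in 34 members, beside 24.0% of all transcripts. In neither comparison were 114 members called, or 79.7%, beside 59.1% of all transcripts. Since each of the 3 means had to reach 2 times the same control mean, nothing is read from these shares.

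**Figure D4:**
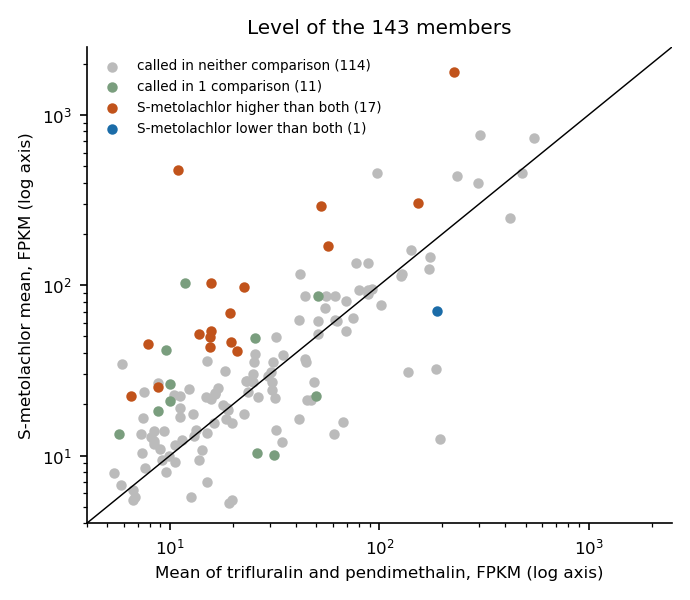
S-metolachlor mean FPKM against the average of the trifluralin and pendimethalin means for each of the 143 members (both axes logarithmic; line: equal levels), coloured by edgeR's calls in the 2 comparisons of S-metolachlor with a dinitroaniline. The 17 members called higher with S-metolachlor lie above the line and reach 1773 FPKM, the 1 called lower lies below it, and 114 were called in neither.

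The member with the largest S-metolachlor fold among those with a control mean of at least 1 FPKM was TRINITY_DN1065_c0_g1_i1_3. Its control replicates 1, 2 and 3 had 1.47, 1.67 and 0.837 FPKM and its acetochlor replicates 0.640, 2.98 and 2.20 FPKM. Trifluralin gave 2.83, 14.1 and 13.9 FPKM, pendimethalin 13.6, 16.3 and 4.98 FPKM, and S-metolachlor 616, 235 and 565 FPKM. Every dinitroaniline library was above every control, and every S-metolachlor library was far above both. The means were 1.32 ± 0.434 FPKM in control, 10.3 ± 6.43 with trifluralin, 11.6 ± 5.91 with pendimethalin, 472 ± 207 with S-metolachlor and 1.94 ± 1.19 with acetochlor (SD, n = 3 each). S-metolachlor exceeded trifluralin by 5.52 on the log2 scale (edgeR adjusted p = 0.000182, SE 0.75) and pendimethalin by 5.33 (edgeR adjusted p = 0.00025, SE 0.75).

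TRINITY_DN6653_c0_g2_i1_4 had the highest S-metolachlor level of the members. Its S-metolachlor replicates 1, 2 and 3 had 1939, 1281 and 2100 FPKM and its controls 71.6, 158 and 57.5 FPKM. Trifluralin gave 89.8, 231 and 287 FPKM, pendimethalin 259, 436 and 65.1 FPKM, and acetochlor 58.9, 77.9 and 81.9 FPKM. Trifluralin replicate 1 and pendimethalin replicate 3 lay within the range of the controls, and the S-metolachlor libraries lay above all others. S-metolachlor exceeded pendimethalin by 2.79 on the log2 scale (edgeR adjusted p = 0.00356, SE 0.60; 3.48 without pendimethalin replicate 2) and trifluralin by 3.13 (edgeR adjusted p = 0.00177, SE 0.61).

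TRINITY_DN11331_c0_g1_i1_3 had 88.1, 41.6 and 180 FPKM in S-metolachlor replicates 1, 2 and 3, and 1.40, 0.937 and 2.998 FPKM in the controls. With trifluralin it had 1.26, 8.75 and 11.1 FPKM, with pendimethalin 4.47, 40.3 and 4.84 FPKM, and with acetochlor 2.98, 1.58 and 1.09 FPKM. One trifluralin library lay among the controls, and pendimethalin replicate 2 came close to the lowest S-metolachlor library. S-metolachlor exceeded trifluralin by 3.89 on the log2 scale (edgeR adjusted p = 0.011, SE 1.03), or by 3.19 without S-metolachlor replicate 3 (edgeR adjusted p = 0.0406). Its difference from pendimethalin was 2.60 (edgeR adjusted p = 0.0558, SE 0.97) and was not called.

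The reverse order, with the dinitroanilines above S-metolachlor, was called against both in TRINITY_DN15381_c0_g1_i1_1. Trifluralin replicates 1, 2 and 3 had 146, 199 and 217 FPKM, and pendimethalin replicates 152, 258 and 166 FPKM. The S-metolachlor libraries had 71.8, 74.2 and 66.3 FPKM, the acetochlor libraries 14.1, 22.4 and 21.3 FPKM and the controls 24.9, 22.8 and 8.13 FPKM. The 3 levels did not overlap, with the dinitroanilines highest, S-metolachlor between, and acetochlor together with control. In this member pendimethalin replicate 3 and trifluralin replicate 1 were near the other libraries of their groups. S-metolachlor was below trifluralin by a log2 difference of -1.42 (edgeR adjusted p = 0.0061, SE 0.34) and below pendimethalin by -1.47 (edgeR adjusted p = 0.00532, SE 0.34).

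TRINITY_DN5419_c0_g1_i2_4 had a graded order, with 53.8, 25.5 and 29.4 FPKM in trifluralin replicates 1, 2 and 3, 13.4, 15.5 and 18.5 FPKM with pendimethalin, and 10.1, 11.7 and 9.37 FPKM with S-metolachlor. The controls had 5.04, 6.37 and 4.04 FPKM and the acetochlor libraries 5.33, 4.31 and 7.92 FPKM. The libraries of trifluralin, pendimethalin and S-metolachlor did not overlap with each other or with the others. S-metolachlor was below trifluralin by a log2 difference of -1.84 (edgeR adjusted p = 0.0005, SE 0.29), whereas its difference from pendimethalin, -0.63 (edgeR adjusted p = 0.106, SE 0.28), was not called.

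TRINITY_DN6795_c0_g1_i2_1 had the second-largest pendimethalin fold, 10.1, among members with a control mean of at least 1 FPKM whose pendimethalin libraries all lay above the controls, at 78.0, 31.1 and 25.2 FPKM in replicates 1, 2 and 3. Trifluralin gave 21.6, 12.2 and 20.3 FPKM, S-metolachlor 8.99, 11.4 and 9.87 FPKM, acetochlor 6.59, 5.30 and 6.77 FPKM, and the controls 3.84, 8.23 and 1.21 FPKM. Every S-metolachlor library was above every control, although control replicate 2 came within 1 FPKM of the lowest. S-metolachlor was below pendimethalin by a log2 difference of -2.14 (edgeR adjusted p = 0.00669, SE 0.51), or -1.55 without pendimethalin replicate 1 (edgeR adjusted p = 0.0326).

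**Figure D5:**
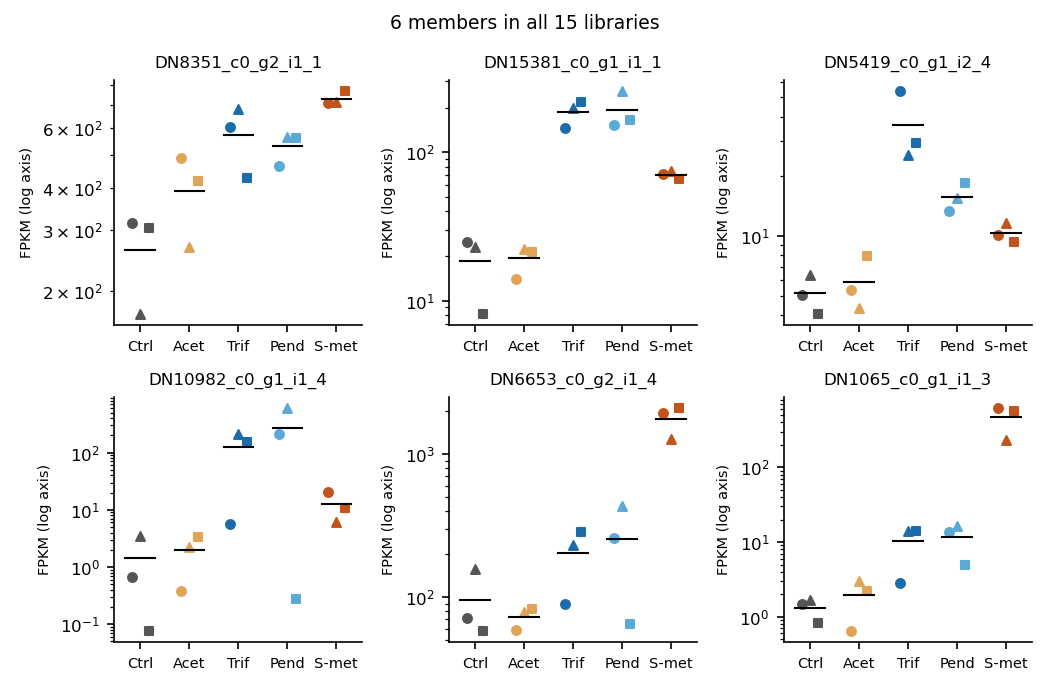
FPKM on logarithmic axes of 6 named members in all 15 libraries (circle, triangle and square: replicates 1, 2 and 3; bars: group means; Ctrl control, Acet acetochlor, Trif trifluralin, Pend pendimethalin, S-met S-metolachlor). TRINITY_DN15381_c0_g1_i1_1 separates into 3 levels, TRINITY_DN1065_c0_g1_i1_3 reaches 235 to 616 FPKM only with S-metolachlor among the 5 groups, and in TRINITY_DN10982_c0_g1_i1_4 pendimethalin replicate 3, at 0.272 FPKM, lies far below replicates 1 and 2.

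Some of the largest dinitroaniline folds rested on libraries of very unequal level. TRINITY_DN10982_c0_g1_i1_4 had 5.73, 210 and 152 FPKM in trifluralin replicates 1, 2 and 3, and 208, 592 and 0.272 FPKM in pendimethalin replicates 1, 2 and 3. Its controls had 0.675, 3.50 and 0.0752 FPKM, its acetochlor libraries 0.382, 2.24 and 3.40 FPKM and its S-metolachlor libraries 20.6, 6.01 and 10.8 FPKM. Pendimethalin replicate 3 lay inside the range of the controls, whereas pendimethalin replicate 2 was the highest of all libraries and replicate 1 was level with trifluralin replicate 2. The mean folds were 86.7 with trifluralin and 188 with pendimethalin, against 8.80 with S-metolachlor, and the trifluralin log2 ratio was 6.44, or 8.35 without control replicate 2 and 5.80 without trifluralin replicate 2. The lowest library held 2.06 expected counts.

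TRINITY_DN6377_c0_g1_i3_2 had a like pattern, with 7.67, 83.7 and 78.0 FPKM in trifluralin replicates 1, 2 and 3 and 76.7, 119 and 0.909 FPKM with pendimethalin. The S-metolachlor libraries had 11.2, 9.11 and 19.7 FPKM, the acetochlor libraries 4.35, 5.81 and 6.01 FPKM, and the controls 2.41, 7.41 and 1.63 FPKM. Trifluralin replicate 1 stood just above the highest control and pendimethalin replicate 3 below all controls. Its log2 ratio of trifluralin to control was 3.89, or 4.81 without control replicate 2.

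The 11 members with a control mean under 1 FPKM had such unequal libraries too. Their median folds were 19.5 with trifluralin, 23.5 with pendimethalin and 23.3 with S-metolachlor. In all 11, pendimethalin replicate 3 was under 1/2 of the mean of replicates 1 and 2, with a median ratio of 0.00723, and in 8 it was below the control mean. A value under 1e-06 FPKM, taken as 0, occurred in 2 members, both named after their values were seen. TRINITY_DN6333_c0_g1_i2_2 had it in control replicate 3, beside 0.736 and 2.29 FPKM in control replicates 1 and 2. TRINITY_DN2987_c0_g1_i1_4 had 15.2, 65.6 and 0 FPKM in pendimethalin replicates 1, 2 and 3, and 0.873, 19.0 and 17.5 FPKM with trifluralin. With S-metolachlor it had 6.57, 5.05 and 4.75 FPKM, with acetochlor 0, 0.484 and 0.489 FPKM, and in the controls 0, 0.949 and 0 FPKM, so that its control mean rests on replicate 2.

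At the other end of abundance, TRINITY_DN8351_c0_g2_i1_1 had the highest control mean, with 315, 171 and 305 FPKM in control replicates 1, 2 and 3. It had 602, 680 and 427 FPKM with trifluralin, 463, 564 and 558 FPKM with pendimethalin, 709, 712 and 767 FPKM with S-metolachlor and 490, 269 and 418 FPKM with acetochlor. Here control replicate 2 was the lowest control, and acetochlor replicate 1 lay above trifluralin replicate 3 and pendimethalin replicate 1. Its folds over control were 2.16, 2.01, 2.77 and 1.49 with trifluralin, pendimethalin, S-metolachlor and acetochlor. TRINITY_DN1159_c0_g1_i2_4 followed, with 142, 248 and 159 FPKM in the controls, 240, 558 and 617 FPKM with trifluralin, 651, 673 and 152 FPKM with pendimethalin, 528, 325 and 504 FPKM with S-metolachlor and 132, 155 and 181 FPKM with acetochlor. In it trifluralin replicate 1 and pendimethalin replicate 3 lay among the controls, while the S-metolachlor libraries lay above all controls.

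Summed over the members, TMM-scaled CPM (counts relative to library size, scaled by edgeR's trimmed mean) came to 5226, 6060 and 4058 in control replicates 1, 2 and 3. It was 6040, 5800 and 5605 with acetochlor, 10750, 14621 and 17012 with trifluralin, 16809, 19490 and 8037 with pendimethalin, and 19974, 17364 and 21264 with S-metolachlor. Pendimethalin replicate 3 lay above every control and acetochlor library in this sum but below every other library of the 3 herbicides. Without the member of highest control mean, TRINITY_DN8351_c0_g2_i1_1, its sum was 5527, and that of control replicate 2 was 5275.

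Within groups the members varied more than the table as a whole where the dinitroanilines and the control were concerned. The median coefficient of variation of FPKM over the members was 39.7% with trifluralin, 58.4% with pendimethalin and 51.4% in control, against 29.0%, 34.5% and 31.1% over all tested transcripts. With S-metolachlor it was 13.9%, against 17.6%, and with acetochlor 28.9%, against 30.7%. The 280 transcripts raised by all 4 herbicides had 30.8%, 40.7% and 51.0% with trifluralin, with pendimethalin and in control. Limits on group means can admit transcripts through a single high or low library. Nothing is therefore read from the differences to all tested transcripts.

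In length the members were close to other transcripts that passed the same minimum of 5 FPKM in the 3 groups. The relative length, taken as the ratio of expected count to FPKM, had a median of 1.61 times that of all tested transcripts (quartiles 0.879 and 2.41, against 0.50 and 1.76). The minimum of 5 FPKM enters here, since the 7291 other tested transcripts that reached it in the 3 groups had a median of 1.54 times (quartiles 0.976 and 2.31). The last digit of the transcript name, which no source used here explains, was 1 in 38 members, 2 in 18, 3 in 37, 4 in 35 and 5 in 15. The shares of 26.6%, 12.6%, 25.9%, 24.5% and 10.5% stood beside 24.4%, 13.4%, 20.8%, 19.0% and 22.4% of all tested transcripts.

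Other rows of the members' Trinity genes were compared with control as well. There were 120 such rows beside 83 of the members, of which 104 were tested. Called higher than control were 7 of these with trifluralin (6.73%), 10 with pendimethalin (9.62%), 23 with S-metolachlor (22.1%) and 5 with acetochlor (4.81%). These shares stand beside 7.68%, 7.35%, 24.4% and 5.26% of all transcripts. Called lower than control were 7, 6, 23 and 7 of these 104 rows with trifluralin, pendimethalin, S-metolachlor and acetochlor. Over all transcripts, 1229, 973, 3815 and 783 of 17555 were called lower in the same contrasts. The log2 fold changes of the 104 rows were positive with all 3 raising herbicides in 32.7%, against 30.3% of the tested transcripts that were no members. A row that met the rule would itself be a member, which lowers these shares, and rows of 1 Trinity gene name need not come from 1 gene.

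The members held 1 Trinity gene with more than 1 row, named here after its values were seen. TRINITY_DN4369_c0_g1_i1_2 had 3.70, 8.17 and 2.11 FPKM in control replicates 1, 2 and 3, and 9.61, 9.99 and 10.9 FPKM with trifluralin. With pendimethalin it had 10.8, 12.9 and 4.96 FPKM, with S-metolachlor 11.4, 10.2 and 8.24 FPKM and with acetochlor 5.01, 6.18 and 8.40 FPKM. TRINITY_DN4369_c0_g1_i1_5 was at 11.6, 19.7 and 4.64 FPKM in the controls, 16.7, 44.9 and 76.3 FPKM with trifluralin, 57.9, 41.6 and 11.02 FPKM with pendimethalin, 71.1, 57.9 and 58.3 FPKM with S-metolachlor and 16.5, 13.7 and 14.1 FPKM with acetochlor. In both rows pendimethalin replicate 3 was within the range of the controls and control replicate 2 was the highest control.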

How the data were processed

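RNA of 15 mycelium libraries was analysed from 2 deposited tables of 20602 transcripts. The first holds the authors' expected counts, estimates that need not be whole numbers. The second holds the authors' FPKM, scaled by transcript length and library total. Trimmomatic, Bowtie2 and DESeq are listed, with no versions, in the submitters' processing notes, which also list mm10, a mouse build, with no role. How the transcripts were assembled and counted is not stated in those sources. Isoforms, near-identical copies and transcripts overlapping on either strand may have had reads divided among them, so single transcripts are uncertain in that respect.

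Group means of FPKM chose the members. Expected counts were rounded, filtered with filterByExpr (minimum count 10, minimum total 15; 17555 kept), scaled by TMM and fitted in edgeR 4.0.16 (R 4.3.3) with 1 mean per group over all 15 libraries, so the groups share 1 estimate of spread. Transcripts with a Benjamini-Hochberg adjusted p under 0.05 were called. On simulated counts with known changes of mixed size the test missed most of them and made some false calls. The simulation changed far fewer transcripts than were called between S-metolachlor and either dinitroaniline. Its miss rate need not hold for those comparisons. A transcript that was not called may still differ. SEs were derived from the log2 fold change and its F statistic, and SDs are over n = 3 libraries. Alternatives were DESeq2 1.42.0, limma 3.58.1 on log2(FPKM + 1) and log2(FPKM + 0.1) (at least 1 FPKM in 3 libraries, or no filter), other scaling and filters, fits of the compared groups alone, a replicate block, and leaving out each library. Members, lists and tests were chosen with earlier results of these data known.

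Named by rule were, with a control mean of at least 1 FPKM, the 2 members with the largest fold per raising herbicide and no overlap with control, the 2 with the highest control mean, and, per tested pair, the 2 largest called differences in each direction. For pendimethalin the rule gave TRINITY_DN15381_c0_g1_i1_1 and TRINITY_DN6795_c0_g1_i2_1.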

Additional observations from a re-analysis of the deposited data

How the results depend on the processing

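The 143 members became 49 with a limit of 3 times control, 78 with a narrower limit for acetochlor, and 38 when each of the 3 rises also had to be called by edgeR. With TMM-scaled counts per relative length in place of FPKM 102 met the rule, of which 90 were members, and with means of at least 10 FPKM 102 did. Pendimethalin against trifluralin gave 0 members in every alternative but DESeq2, with 1. Over all transcripts DESeq2 called 218 and edgeR 72 of 17555 in that pair. S-metolachlor against trifluralin gave 43 with only the compared groups, against 26, and 18 to 23 without 1 library. Over all transcripts the calls were 7242 of 15694, against 6153 of 17555, and 4393 to 5228 without 1 library. S-metolachlor against pendimethalin gave 17 to 29 without 1 library, against 21, and 31 with DESeq2. Calls over all transcripts in that pair were 4063 to 5487 without 1 library, against 5796, and 6707 with DESeq2. The called differences by which members were named kept their direction and their call in all 14 alternatives run for each. With the replicate block the S-metolachlor counts were 22 and 21 against trifluralin and pendimethalin, and the trifluralin count against control was 37, against 58. In these 3 contrasts the block gave 5554, 5142 and 1890 calls over all transcripts, against 6153, 5796 and 2578 without it. Replicates of the same number did not deviate together in all pairs. The correlations of their deviations were -0.17, 0.24 and -0.44 for trifluralin and pendimethalin, but 0.07, 0.14 and 0.40 for pendimethalin and control. The numbers were not taken as pairing, and a call lost under the block is no sign of a weaker effect. Whether libraries of the same number share an effect was not tested further. DESeq2 called 98 members with trifluralin and 103 with pendimethalin against control. Its higher calls over all transcripts were 1989 and 1946 of 17555, against 1349 and 1290 in edgeR. Nothing is read from these member counts, since the rule used both contrasts. Over all transcripts, S-metolachlor against trifluralin gave 3731 higher and 2506 lower calls in limma on log2(FPKM + 1), against 3193 and 2960 in edgeR, and S-metolachlor against pendimethalin 3510 and 2483, against 2863 and 2933. Among members the limma splits were 28 and 2, and 24 and 2; without a filter the median log2 difference over all transcripts was 0.16 against trifluralin (0.07 in edgeR) and 0.12 against pendimethalin (-0.01 in edgeR). Depth limits members with few counts, and intervals of the differences cover the spread between 3 libraries a group. A fit of pendimethalin against trifluralin alone gave 0 calls over all transcripts and 705 unadjusted p under 0.05.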
